A study of Mus musculus with 6 samples.

Results

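ABC transporters are membrane proteins and their relatives that share an ATP-binding cassette, the domain that binds and hydrolyses ATP. The genes described here were those whose symbol is Abca, Abcb, Abcc, Abcd, Abce, Abcf or Abcg followed by a number, with or without a final letter. On the MoGene 1.0 ST array 48 such genes had a probeset assigned to 1 gene symbol, of 19938 genes with such a probeset in all. Abcb5 had 2 probesets and was represented by the one with the higher mean over the 6 arrays, and each other gene had 1.

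Most ABC proteins use ATP to move a substrate across a membrane, and the subfamilies differ in what they carry and where they sit. Members of subfamily A mainly move lipids. Subfamily B includes the P-glycoprotein drug pumps and transporters of mitochondria and lysosomes, subfamily C exports organic anions and glutathione conjugates, and subfamily D works mainly in peroxisomes. Subfamilies E and F have no membrane-spanning part and act on ribosomes and translation. Subfamily G exports sterols and drugs. In bone marrow, efflux of the Hoechst dye by Abcg2 gives rise to the "side population", a flow-cytometric fraction enriched for haematopoietic stem cells.

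Expression was measured in KSL SLAM cells, a stem cell-enriched fraction sorted from mouse bone marrow as positive for c-Kit, Sca-1 and CD150 and negative for lineage markers, CD48 and CD41. Mice received G-CSF, the cytokine that mobilizes stem cells and drives granulopoiesis, at 125 mcg/kg in 2 subcutaneous injections per day for 7 days, or PBS, called saline in the study's title, for 7 days. Each group had 3 arrays, each of cells pooled from 5 to 10 mice, so a value is an average over animals whose age, sex and strain the labels do not give. Levels are log2 of the deposited RMA intensity, and a difference is G-CSF minus PBS on that scale. Array medians lay between 56.2 and 61.7 in intensity units, and precision is limited by having only 3 arrays in a group.

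The arrays differed in markers of other cells. The list of 17 mature neutrophil genes had array means of 7.61 to 8.60 with PBS and 9.68 to 10.46 with G-CSF, and in 16 of its genes the G-CSF arrays were all the higher ones. The list of 10 granulocyte-monocyte progenitor genes had array means of 6.37 to 6.91 and 7.59 to 8.58, and that of 8 monocyte, macrophage and dendritic cell genes 6.74 to 7.01 and 7.20 to 7.41. The list of 14 stem cell genes lay at 7.88 to 7.93 with PBS and 7.38 to 7.74 with G-CSF, and that of 9 megakaryocyte and platelet genes at 6.53 to 6.69 and 5.92 to 6.08. In 3 of the 14 and 3 of the 9 genes the G-CSF arrays were all the lower ones. In 1 of the 9, Itgb3, they were all the higher ones. Over all 14994 genes tested, the G-CSF arrays were all the higher ones in 5.77% and all the lower ones in 5.05%. Of the sort markers, Kit was at 10.01 ± 0.23 and Slamf1, which encodes CD150, at 6.51 ± 0.13 in PBS arrays (SD, n = 3). Itga2b, which encodes CD41, and Cd48, both selected against, were at 6.37 ± 0.14 and 5.46 ± 0.77 there. Probesets differ in response, so these levels do not show which markers were present. The erythroid, B lymphocyte, and mast cell and basophil lists had median differences of -0.23, -0.11 and -0.31, over 8, 5 and 3 genes. The lists of T and NK lymphocytes and of endothelial and stromal cells had medians of 0.01 and 0.04. In each of these lists the array means of the groups overlapped. Of 9 T and NK lymphocyte markers with a probeset, 5 lay under the limit used here for dim genes. The part of these shifts in the ABC differences below was not tested. In such bulk samples, fewer cells of a type and less RNA per cell cannot be told apart.

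Of the 48 ABC genes, 34 passed the filter on dim probesets, a mean over all 6 arrays above 5.15, which leaves out the lowest 25% of probesets. The limit is that of the filter and no measured background. All 3 Abcd, the Abce and all 3 Abcf genes passed, as did 7 of 9 Abcb, 8 of 10 Abcc, 4 of 6 Abcg and 8 of 16 Abca genes. The 14 dim genes were Abca6, Abca8a, Abca8b, Abca9, Abca12, Abca14, Abca15, Abca16, Abcb5, Abcb11, Abcc2, Abcc12, Abcg5 and Abcg8. In 10 of them 0 of the 6 arrays lay above the limit, and in the other 4 a single array did. Several are known from other tissues, such as Abcb11, the bile salt export pump of liver, and Abcg5 and Abcg8, which together export sterols in liver and intestine.

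**Figure D1:**
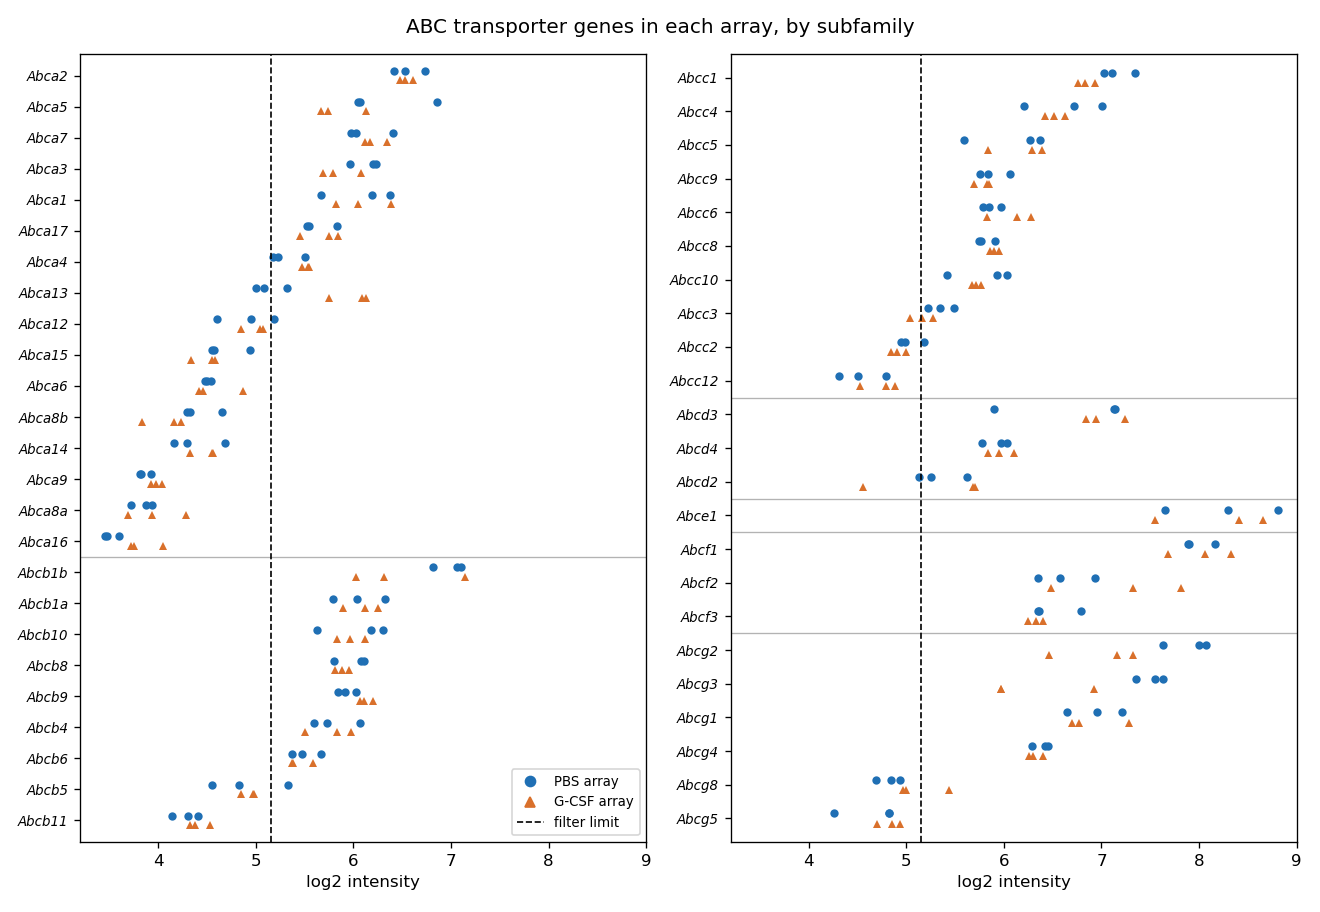
Log2 intensity (horizontal axis) of the 48 ABC genes in each of the 6 arrays, by subfamily and ordered by PBS mean. Blue circles are the 3 PBS arrays, orange triangles the 3 G-CSF arrays, and the dashed line is the filter limit of 5.15. Probesets differ in response, so positions compare arrays within a gene and not amounts between genes. The widest gaps between the groups are in Abcg2, Abcg3 and Abca13.

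Across the 34 genes that passed, 0 were called higher and 0 lower at an adjusted p under 0.05 by limma, where 0.0267% of the 14994 genes tested were called, all of them higher. The smallest adjusted p of an ABC gene was 0.307. At an unadjusted p under 0.05, Abca13 was higher and Abcg2 and Abcg3 were lower, which is 8.82% of the genes against 6.04% of all genes tested. In 5 genes the groups did not overlap, which is 14.7% against 10.8% of all genes. Of these, 2 were higher with G-CSF (5.77% of all genes tested were) and 3 were lower (5.05%). Abca13 passed the filter through its G-CSF arrays: its PBS mean of 5.14 lay under the limit, with 1 of 3 PBS arrays above it. Without it the shares were 6.06% (2 of 33 genes) and 12.1% (4 of 33). These shares are near the background, and with 34 genes each gene is worth 2.94 percentage points. The median difference was -0.02 beside 0.00 over all genes tested, and 14 of the ABC genes had a positive and 20 a negative difference, against 50.3% and 49.7% of all genes. In 27 of the 34 the difference was smaller than 0.3 in size. In 27 genes, too, the 95% interval of limma lay between -1 and 1, so a change of 2-fold or more lay outside the interval.

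**Figure D2:**
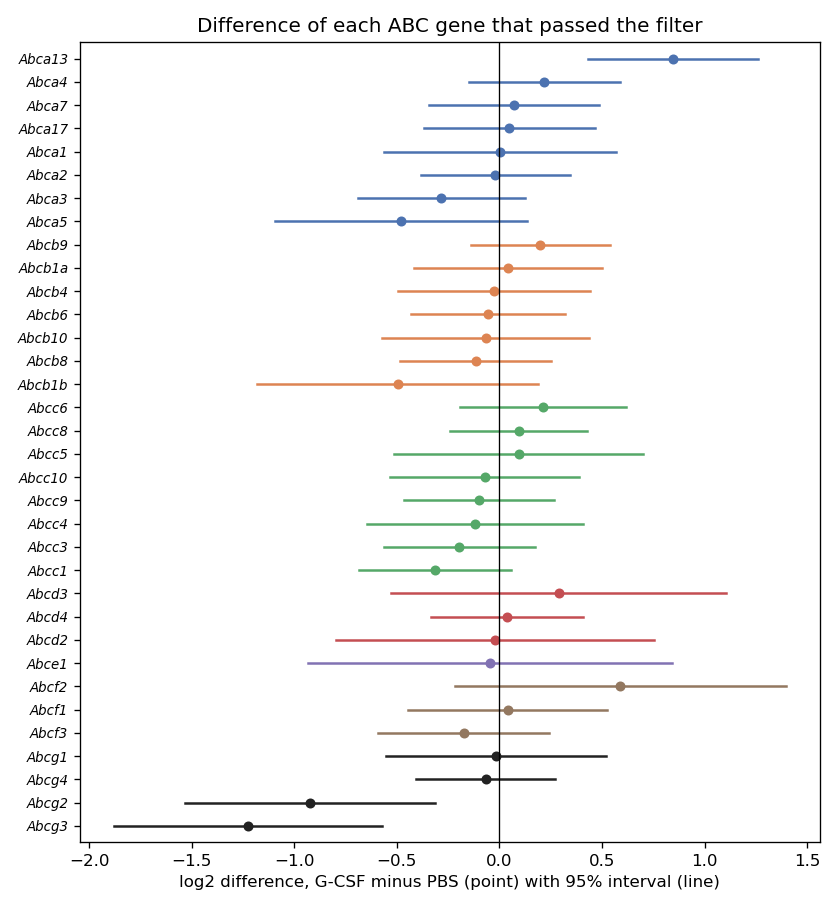
Log2 difference (G-CSF minus PBS, horizontal axis) of the 34 ABC genes that passed the filter, with limma's 95% interval as a line, coloured by subfamily. The intervals of Abca13, Abcg2 and Abcg3 leave out 0, without adjustment for the number of genes.

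The largest negative differences were in subfamily G. Abcg2, the breast cancer resistance protein that pumps Hoechst dye, porphyrins and many drugs out of cells, was at 7.64, 8.07 and 7.999 in PBS replicates 1, 2 and 3 (probeset 10538640). It was at 6.46, 7.16 and 7.32 in G-CSF replicates 1, 2 and 3. The highest G-CSF array thus lay below the lowest PBS array. The means were 7.90 ± 0.24 and 6.98 ± 0.46 (SD, n = 3 per group), a difference of -0.92 (SE 0.26, 95% interval -1.53 to -0.31), with an unadjusted p of 0.00874 and an adjusted p of 0.499 by limma. Abcg2 was 1.89-fold lower with G-CSF, and the difference did not pass adjustment. The lowest Abcg2 value came from G-CSF replicate 1, and without it the difference was -0.66.

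Abcg3, a rodent relative of Abcg2, had the largest difference of all ABC genes measured. Its PBS arrays lay at 7.55, 7.63 and 7.36 (probeset 10531952). Its G-CSF arrays lay at 6.92, 5.97 and 5.97. Again the groups did not overlap, and G-CSF replicate 1 was the nearest to the PBS group. The means were 7.51 ± 0.14 and 6.29 ± 0.55 (SD, n = 3), a difference of -1.23 (SE 0.28, 95% interval -1.88 to -0.57, 2.34-fold lower, limma unadjusted p = 0.00292, adjusted p = 0.351). Without G-CSF replicate 1 the difference was -1.54 (limma adjusted p = 0.13), and it did not pass in any alternative tried.

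The order of the G-CSF arrays was not the same in the 2 genes. G-CSF replicate 1 had the lowest Abcg2 and the highest Abcg3 value of its group. That array also had the lowest mean of the stem cell list (7.38, against 7.74 and 7.64 in replicates 2 and 3). The highest Abcg2 value of the group was in replicate 3 and the highest list mean in replicate 2. A link between these genes and the list was not tested. The median difference over the 14 stem cell genes was -0.26, with 12 of 14 negative and 0 past the adjusted threshold. They ran from -0.98 (SE 0.23) in Kit, the largest in size, to 0.06 in Robo4. Slamf1 was at -0.20, Hlf at -0.16 and Meis1 at -0.06. Abcg2 and Abcg3 are similar genes, the probe sequences were not used here, and how much signal their probesets share was not tested.

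**Figure D3:**
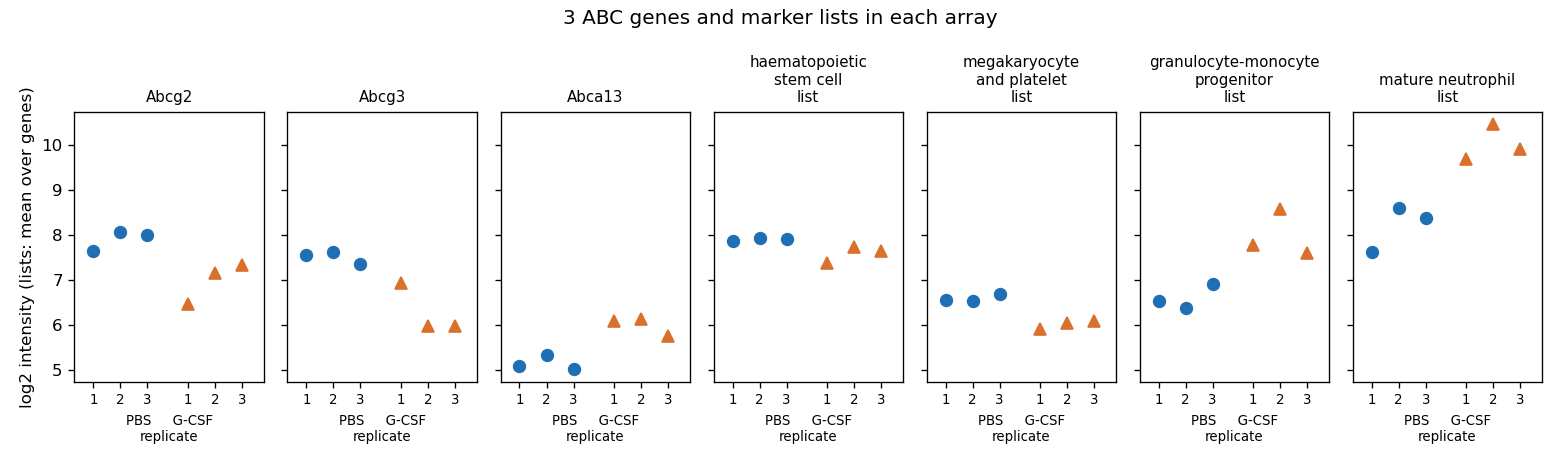
Log2 intensity in each array (replicates 1 to 3 of PBS as blue circles and of G-CSF as orange triangles) of Abcg2, Abcg3 and Abca13, beside the mean over genes of 4 marker lists. The means of the stem cell and megakaryocyte lists lie lower in G-CSF arrays, as do Abcg2 and Abcg3. Those of the granulocyte lists lie higher, as does Abca13, which passed the filter through its G-CSF arrays. The 3 genes were picked for their small unadjusted p between these groups, so a shared direction with a list is no support for a link. Such a link was not tested, and the other marker lists are not shown.

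The other Abcg genes differed little. Abcg1, which passes cholesterol to high-density lipoprotein, was at 6.65, 7.21 and 6.95 with PBS and 7.29, 6.77 and 6.70 with G-CSF. These arrays overlapped, and the difference was -0.02 (95% interval -0.55 to 0.52). Abcg4, a sterol transporter known from brain, was at 6.39 ± 0.09 and 6.32 ± 0.07 (SD, n = 3). The sterol exporters Abcg5 and Abcg8 were dim. In the data without a filter the G-CSF values of Abcg8 (4.97 to 5.44) were all higher than its PBS values (4.69 to 4.94), with 1 of the 6 above the limit. For Abcg5 the ranges were 4.26 to 4.83 with PBS and 4.70 to 4.94 with G-CSF.

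The promoters of the 3 ABC genes with the smallest unadjusted p are shown, as these are the genes whose values are described in most detail. Each is 250 bases before to 50 after a RefSeq start in GRCm38.p6, written 5′ to 3′ along the gene's strand. Capitals mark matches, on either strand, to the GC box GGGCGG, the CCAAT box CCAAT or the ETS core CCGGAA. The TATA box TATAAA, the C/EBP palindrome TTGCGCAA and the LXR direct repeat (2 copies of AGGTCA spaced by 4 bases) were also searched for, and the windows shown hold none of them. Abcg2 has 3 starts in the table, and the one with the most CpG is shown. Of its other starts, both hold a TATA box, and 1 of them also holds a CCAAT box and 2 GC boxes.
Abcg2 (chr6:58640296-58640595, + strand): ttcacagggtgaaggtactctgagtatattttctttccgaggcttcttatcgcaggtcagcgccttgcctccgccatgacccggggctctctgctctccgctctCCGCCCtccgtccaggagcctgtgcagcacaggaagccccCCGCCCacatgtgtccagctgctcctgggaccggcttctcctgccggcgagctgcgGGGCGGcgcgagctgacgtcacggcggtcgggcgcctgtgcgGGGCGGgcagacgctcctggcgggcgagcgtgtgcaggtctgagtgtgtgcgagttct
Abcg3 (chr5:104982668-104982967, - strand): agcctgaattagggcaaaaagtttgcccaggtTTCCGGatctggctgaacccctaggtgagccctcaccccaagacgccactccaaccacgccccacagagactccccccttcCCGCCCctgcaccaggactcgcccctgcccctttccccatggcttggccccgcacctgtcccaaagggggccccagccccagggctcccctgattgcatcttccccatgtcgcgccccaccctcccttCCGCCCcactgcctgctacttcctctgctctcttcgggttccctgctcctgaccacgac
Abca13 (chr11:9191692-9191991, + strand): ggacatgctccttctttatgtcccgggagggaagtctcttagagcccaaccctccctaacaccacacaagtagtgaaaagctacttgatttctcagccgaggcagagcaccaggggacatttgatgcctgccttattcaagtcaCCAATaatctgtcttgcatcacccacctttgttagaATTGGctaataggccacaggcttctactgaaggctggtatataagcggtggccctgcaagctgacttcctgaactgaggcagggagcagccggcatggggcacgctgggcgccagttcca

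The Abcg2 window holds 28 CpG dinucleotides and 4 GC boxes, and that of Abcg3 holds 11 CpG, 2 GC boxes and 1 ETS core. The Abca13 window holds 6 CpG and 2 CCAAT boxes. A GC box occurs in 35.7% of the 32851 promoters of the table, a CCAAT box in 37.4% and an ETS core in 14.9%, so each is common. The table held promoters of 38 ABC genes (45 starts), with a GC box in 46.7%, a CCAAT box in 35.6% and an ETS core in 24.4% of them. The TATA box was found in 15.6% of ABC promoters and 13.6% of all, the C/EBP palindrome in 1 ABC gene, Abcc5 (0.183% of all promoters), and the LXR repeat in 0 (0.0152% of all). A match describes letters and not a bound factor.

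Measured and dim ABC genes differed, with overlapping ranges, in the CpG content of these windows, a feature the choice of genes did not use. The 25 ABC genes that passed the filter and had a promoter in the table held a median of 23 CpG in their richest window (range 2 to 45). The 13 dim ones held a median of 5 (range 1 to 22), and all 27025 genes in the table a median of 8. At least 15 CpG were present in 80% of the first group, 15.4% of the second and 37.1% of all genes. The 37.1% covers genes whether or not they passed the filter, and the share among all genes that passed was not computed. Whether the contrast is particular to ABC genes was thus not tested. These are descriptions without a test, and the count of 15 was chosen for this description.

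Abca13 was the ABC gene with the largest positive difference. It encodes a very large member of subfamily A. Its PBS arrays lay at 5.09, 5.32 and 5.01, with 1 of the 3 above the limit of 5.15 (probeset 10374248). Its G-CSF arrays lay at 6.08, 6.12 and 5.75, all above the PBS arrays. The means were 5.14 ± 0.16 and 5.99 ± 0.21 (SD, n = 3), a difference of 0.85 (SE 0.18, 95% interval 0.43 to 1.26, limma unadjusted p = 0.00178, adjusted p = 0.307). With PBS arrays below the limit raised to it, the difference was 0.78, or 1.71-fold. Abca13 was the 1 gene of the 34 with a group mean under the limit, so it passed the filter through its G-CSF arrays. The mature neutrophil and granulocyte-monocyte progenitor lists moved in the same direction, as given above. Within the G-CSF group, replicate 2 had the highest value of Abca13 and of both lists. Within the PBS group replicate 2 was highest for Abca13 and the neutrophil list and lowest for the progenitor list (6.37). The order of 3 arrays cannot show a link between Abca13 and these lists, and none was tested.

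**Figure D4:**
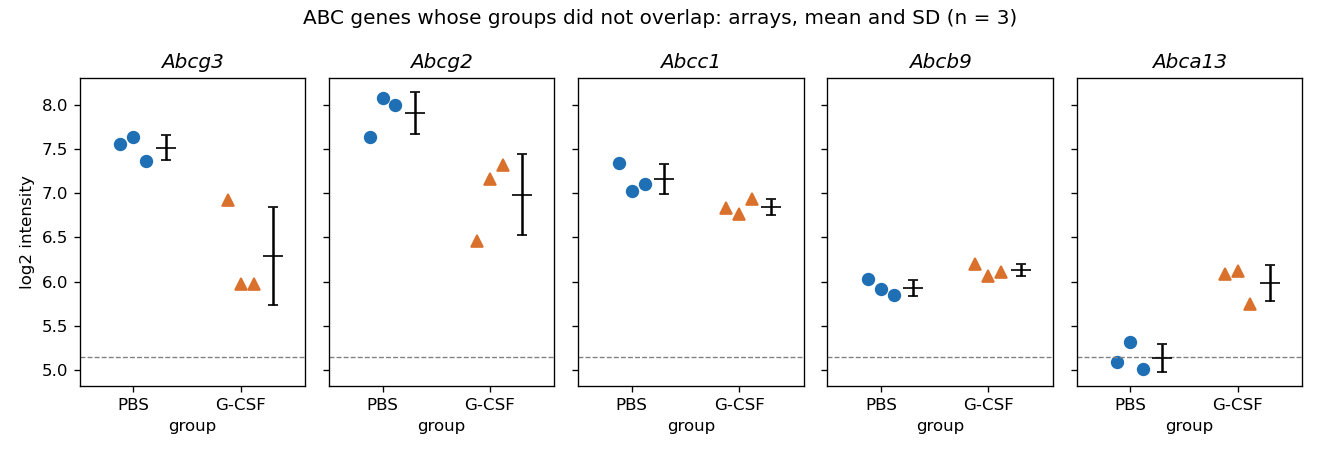
Log2 intensity (vertical axis) of the 5 ABC genes that passed the filter and whose groups did not overlap, with PBS arrays as blue circles, G-CSF arrays as orange triangles, and the group mean and SD (n = 3) in black. The dashed line is the filter limit. The gaps are wide in Abcg3, Abcg2 and Abca13 and narrow in Abcc1 and Abcb9.

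The other lipid transporters of subfamily A showed smaller differences. Abca1, which loads cholesterol and phospholipid onto apolipoprotein A-I, was at 6.19, 5.67 and 6.38 with PBS and 6.39, 6.05 and 5.82 with G-CSF. The groups overlapped, and the difference was 0.00 (95% interval -0.56 to 0.57). Abca7, a relative of Abca1 linked to phospholipid export and phagocytosis, differed by 0.07 (95% interval -0.34 to 0.49). Abca2, which works in lysosomes and is known from myelinating cells, had the highest PBS mean of its subfamily, 6.56 ± 0.16, and 6.54 ± 0.07 with G-CSF (SD, n = 3).

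Abca5 was at 6.05, 6.07 and 6.85 with PBS and at 5.74, 5.67 and 6.13 with G-CSF. The highest G-CSF array lay between the PBS arrays, and the difference of -0.48 (SE 0.26, limma adjusted p = 0.921) did not pass. Without PBS replicate 3, the highest array, it was -0.21. Abca3, which fills the lamellar bodies of lung surfactant cells with lipid, differed by -0.28 (95% interval -0.69 to 0.12). Abca4, the retinoid transporter of photoreceptors, differed by 0.22 and Abca17 by 0.05. The 8 measured Abca genes had a median difference of 0.03, with 5 positive and 3 negative. Among the 8 dim Abca genes, whose PBS means ran down to 3.51, the groups did not overlap in Abca16 and Abca9 (higher) and Abca8b (lower), at levels under the limit in every array. With Abcg8 that is 4 of the 14 dim ABC genes (28.6%). The share over all dim genes was not computed, so no excess is read from this count. Fitted without the filter, the smallest adjusted p of any dim ABC gene was 0.979 by limma.

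In subfamily B, Abcb1a and Abcb1b encode the P-glycoproteins of the mouse, pumps for many drugs and dyes. Abcb1b was at 6.81, 7.10 and 7.06 with PBS. With G-CSF it was at 6.32, 7.14 and 6.02, so that 2 arrays lay below and 1 above all PBS arrays. The difference was -0.50 (SE 0.29, 95% interval -1.18 to 0.19, limma adjusted p = 0.932). Without G-CSF replicate 2 it was -0.82 (limma unadjusted p = 0.00522, adjusted p = 0.542), and without G-CSF replicate 3 it was -0.26 (unadjusted p = 0.392).

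Abcb1a was at 5.79, 6.03 and 6.33 with PBS and 6.26, 5.89 and 6.12 with G-CSF. All G-CSF arrays lay within the PBS range, and the difference was 0.04 (95% interval -0.42 to 0.50). Abcb4, next to these genes on the chromosome, moves phosphatidylcholine into bile. It was at 5.80 ± 0.24 with PBS and 5.77 ± 0.24 with G-CSF (SD, n = 3). Abcb1a and Abcb1b are close paralogs, and signal shared by their probesets was not tested.

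The mitochondrial members Abcb10, which is known for a role in haem synthesis in erythroid cells, and Abcb8 had differences of -0.07 (95% interval -0.57 to 0.44) and -0.12 (-0.48 to 0.25). Abcb6, linked to porphyrin transport, differed by -0.06 (-0.43 to 0.32). Abcb9, a peptide transporter of lysosomes, was at 6.02, 5.91 and 5.85 with PBS and 6.20, 6.07 and 6.11 with G-CSF. All of its G-CSF arrays were higher, but by 0.20 only (SE 0.14, limma unadjusted p = 0.206, adjusted p = 0.948). The 7 measured Abcb genes had a median of -0.06, with 2 positive and 5 negative.

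In subfamily C, Abcc1, which exports glutathione conjugates and leukotriene C4, was at 7.35, 7.03 and 7.11 with PBS and at 6.83, 6.76 and 6.94 with G-CSF. The PBS values were all higher than the G-CSF values. The difference of -0.31 (SE 0.16, 95% interval -0.68 to 0.06) did not pass (limma unadjusted p = 0.0845, adjusted p = 0.868). It had the highest PBS mean of the Abcc genes, 7.16 ± 0.17 (SD, n = 3). Abcc4, which exports cyclic nucleotides and is known from platelets, was at 6.72, 6.20 and 7.00 with PBS and 6.42, 6.63 and 6.52 with G-CSF. The G-CSF arrays lay within the PBS range, and the difference was -0.12 (95% interval -0.65 to 0.41).

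Abcc5, another exporter of cyclic nucleotides, differed by 0.09 (-0.51 to 0.70) and Abcc3, an exporter of conjugated anions known from liver, by -0.19 (-0.56 to 0.17). The measured rest were Abcc6, Abcc8, Abcc9 and Abcc10. Abcc8 and Abcc9 are the sulfonylurea receptor subunits of potassium channels. Their differences ran from -0.10 in Abcc9 to 0.21 in Abcc6. The 8 measured Abcc genes had a median of -0.09, with 3 positive and 5 negative.

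The 3 Abcd genes and the soluble E and F members passed neither threshold. Abcd3, which imports branched-chain and other fatty acids into peroxisomes, was at 7.14, 5.90 and 7.13 with PBS and 6.95, 6.84 and 7.24 with G-CSF. PBS replicate 2 stood below the other 5 arrays, and the PBS SD of 0.71 was the largest of any ABC gene in that group. The difference was 0.29 (95% interval -0.53 to 1.10), and without PBS replicate 2 it was -0.12. Abcd4, which takes part in lysosomal release of cobalamin, differed by 0.04 (-0.33 to 0.41), and Abcd2, a peroxisomal relative of Abcd3, by -0.02 (-0.80 to 0.76).

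Abce1, which splits ribosomes after termination, had the brightest probeset of the 48, at 8.30, 7.65 and 8.81 with PBS and 7.55, 8.41 and 8.66 with G-CSF. The arrays spread by more than 1 log2 unit within each group, and the difference was -0.05 (95% interval -0.93 to 0.84). Abcf1, which takes part in translation initiation, was at 7.98 ± 0.15 and 8.02 ± 0.33 (SD, n = 3). Abcf2 was at 6.35, 6.57 and 6.93 with PBS and 7.33, 7.81 and 6.48 with G-CSF. Replicates 1 and 2 of G-CSF exceeded every PBS value and replicate 3 did not, and the difference was 0.59 (SE 0.34, limma adjusted p = 0.932). Without G-CSF replicate 3 it was 0.95 (limma unadjusted p = 0.00955, adjusted p = 0.593), and without G-CSF replicate 2 it was 0.29 (unadjusted p = 0.389). Abcf3 differed by -0.17 (95% interval -0.59 to 0.24).

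The pathways in which these transporters work were examined through lists of other genes, of which 0 passed the adjusted threshold by limma. At an unadjusted p under 0.05, where 2.73% of all genes were higher and 3.3% lower, the counts per list ran from 1 to 5. Of 17 genes of cholesterol handling and its sensor LXR, 0 were higher and 1 was lower. That gene, Apoe, which encodes a lipid carrier that accepts cholesterol from cells, differed by -0.55 (SE 0.22), and Lpcat3, an LXR target that remodels phospholipids, by 0.73 (SE 0.33) without reaching that level. Of 18 peroxisome genes 0 were higher and 3 lower. Among them Hacl1, a lyase of fatty acid alpha-oxidation, differed by -0.99 (SE 0.19, limma unadjusted p = 0.00128, adjusted p = 0.266) and the import factor Pex13 by -0.55 (SE 0.18).

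Of 21 mitochondrial iron-sulfur and haem genes, 2 were higher and 0 lower at that level, both of them enzymes of haem synthesis. Alas1, the first enzyme of the pathway, differed by 0.82 (SE 0.28) and Ppox by 0.43 (SE 0.17). The other measured enzymes of haem synthesis ran from -0.37 (Uros) to 0.09 (Cpox). In the list as a whole, 8 differences were positive and 13 negative. Of 20 genes of ribosome recycling and initiation control, 0 were higher and 1 was lower. That gene was Impact, a regulator of the Gcn2 kinase, at -0.70 (SE 0.22). Eif2b3, a subunit of the exchange factor eIF2B, differed by 0.46 (SE 0.26). Of 20 genes of xenobiotic sensing and glutathione conjugation, 2 were higher and 3 lower. Glutathione reductase, Gsr, differed by 1.26 (SE 0.30) and the microsomal glutathione transferase Mgst2 by 1.52 (SE 0.36), with all G-CSF arrays higher in both. Gstt2, Mgst3 and Gsta4, 3 further glutathione transferases, differed by -0.75, -0.90 and -1.46. The list medians ran from -0.09 (peroxisome, ribosome) to -0.03 (xenobiotic), against 0.00 over all genes.

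**Figure D5:**
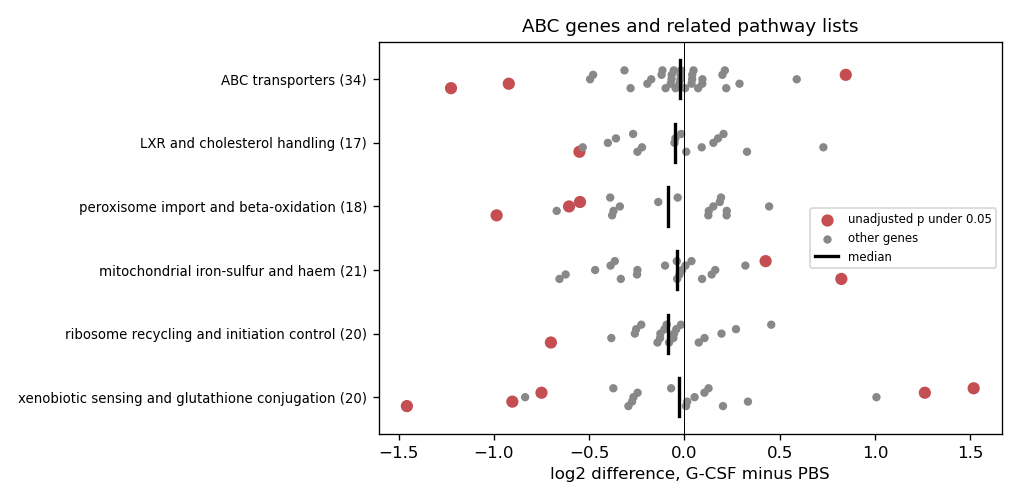
Log2 difference (G-CSF minus PBS, horizontal axis) of each measured ABC gene and of the genes in 5 related lists, with the number of genes in brackets. Large red points have an unadjusted p under 0.05 and black bars are medians. The medians lie near 0, and the widest spread is in the xenobiotic and glutathione list, from -1.46 to 1.52.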

How the data were processed

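The authors deposited intensity values made with RMA, as the submitters' processing notes say. RMA corrects background, quantile-normalizes arrays and summarises probes, and it is known to understate large differences. Its software and version are not stated. The intensity values ran from 2.70 to 19069, a linear scale, so log2 was taken. RNA was column-purified and amplified with the NuGen Ovation system, per the labels' protocols. Genes were named through the platform annotation (21789 probesets with 1 symbol, 1621 with several, 12144 unlisted and not assigned). All 48 ABC identifiers matched a RefSeq table (GRCm38.p6), used for names, order on the chromosome and promoters.

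The lowest 25% of probesets by mean were left out, and the brightest probeset stood for each gene, which left 14994 genes. Groups were compared with limma 3.58.1 (R 4.3.3; lmFit, eBayes, two-sided, Benjamini-Hochberg over all 14994 genes, threshold 0.05), tested on simulated data. Each replicate is a pool, and the main fit took the pools of both groups as independent. The ABC genes, lists and naming rule (an unadjusted p under 0.05, no overlap, the brightest of a subfamily, and a fixed set of members) were chosen with earlier results of these data known. Protein features were not used here. Figures used matplotlib 3.10.9. Alternatives changed the filter, normalization, variance model, array weights, probeset rule, replicate block, minimum fold and arrays.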

Additional observations from a re-analysis of the deposited data

How the results depend on the processing

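No ABC gene passed at an adjusted p under 0.05 in any of the 15 alternatives, by limma. Abca13, Abcg2 and Abcg3 kept their direction in each alternative that tested them, with differences of 0.78 to 0.97, -1.09 to -0.66 and -1.54 to -1.07, and adjusted p no smaller than 0.211, 0.264 and 0.13. All genes higher with G-CSF numbered 4, but 12 with quantile normalization again, 2 with arrays centred on the median, 2 with a minimum fold of 1.5, and 0 to 6 on leaving out 1 array; 0 were lower throughout (495 at an unadjusted p under 0.05). At an unadjusted p under 0.05, ABC genes higher numbered 0 with the lowest 50% left out, where Abca13 was not tested, and 0 with a minimum fold of 1.5. They numbered 1 to 2 on leaving out 1 array, and those lower numbered 1 with a minimum fold of 1.5. The replicate block gave 5 genes higher in all and 3 ABC genes lower (Abca5 added, limma adjusted p = 0.569). Same-numbered arrays correlated in their deviations by 0.29, 0.02 and 0.19, and differently numbered ones by -0.28 to 0.10. The labels name no pairs, so the main fit was unpaired, and whether the numbers mark pairs was not tested. With the block, Abcg2 had an unadjusted p of 0.00235 and an adjusted p of 0.264 by limma. The ABC median stayed between -0.08 and 0.02, and was 0.02 without a filter. Centring and repeated quantile normalization moved the median of all genes to -0.016 and -0.0043.

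Many of the ABC genes that passed the filter changed sign in at least 1 alternative, and the cause was not tested. Most of them had a main difference near 0, but those of Abcd3 and Abcc4 were 0.29 and -0.12. Abcg1 was at 0.031 with quantile normalization again, Abca1 at -0.014 with centring and -0.064 with array weights, and Abce1 at 0.013 with array weights. On leaving out 1 array the ranges were -0.20 to 0.12 for Abcg1, -0.20 to 0.15 for Abca1, -0.35 to 0.28 for Abce1, -0.032 to 0.16 for Abca17, -0.091 to 0.065 for Abca2 and -0.0072 to 0.21 for Abca7. They were -0.27 to 0.066 for Abcb10, -0.090 to 0.18 for Abcb1a, -0.13 to 0.11 for Abcb4, -0.13 to 0.026 for Abcb6, -0.26 to 0.046 for Abcc10, -0.34 to 0.060 for Abcc4 and -0.15 to 0.26 for Abcc5. For Abcd2 they were -0.21 to 0.36, for Abcd3 -0.12 to 0.50, for Abcd4 -0.037 to 0.10 and for Abcf1 -0.11 to 0.21. Without a detection value the filter limit is the only measure of dimness, so a dim gene is not shown to be absent.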

Other observations

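Some genes of the ABC superfamily carry other symbols. Tap1 and Tap2, which form the peptide transporter that loads MHC class I, were at 6.55 ± 0.34 and 6.77 ± 0.30 with PBS and at 6.64 ± 0.21 and 6.82 ± 0.34 with G-CSF (SD, n = 3). Their differences of 0.09 (SE 0.22) and 0.06 (SE 0.24) did not pass (limma adjusted p = 0.992 and 0.999). 

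By order on the chromosome, several ABC genes stand side by side. On chromosome 11 the order is Abca8b, Abca8a, Abca9, Abca6 and Abca5. Abca5 passed the filter in this run of 5, and the other 4 lay under the limit in every array. On chromosome 7, Abca14, Abca15 and Abca16 are neighbours and all 3 were dim. On chromosome 5, Abcb1a, Abcb1b and Abcb4 are neighbours and all 3 passed. On chromosome 17, Abca17 and Abca3 both passed, while the pair Abcg5 and Abcg8 were both dim.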
